A study of Mus musculus with 7 samples.

Results

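Rab GTPases are the largest branch of the Ras-like small G proteins, and their transcripts were followed here in mouse β-cells after a brief change of diet. The members were the rows of the β-cell count table whose gene name is Rab followed by digits, with at most one letter and one further digit, and with at least 350 counts summed over the 7 libraries. Of 58 such names among the 24035 genes of the table, 41 reached that sum, and the other 17 lay between 0 and 286 counts. The member just inside was Rab40b with 469 counts, and the rows just outside were Rab19 and Rab9b with 286 counts each. The HFD group was 3 libraries (replicates 2 to 4) of β-cells from male C57BL/6N mice (C57BL/6NCrl in the study's methods) that had 2 days of high fat diet, and the CD group was 4 libraries (replicates 1 to 4) from mice of that genotype kept on chow. All mice were 12 weeks old when the diets began. Their islets were dispersed, and β-cells were taken by FACS with ZIGIR, a dye that reports zinc, and Ex4-Cy5, a labelled ligand of the GLP-1 receptor. The comparison asks whether Rab transcripts differed after this short overfeeding, which the study used as an early stage of metabolic stress.

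A Rab protein switches between a GTP-bound form, which sits on a membrane and recruits effectors, and a GDP-bound form, which the chaperone GDI keeps in the cytosol. Exchange factors load GTP, GTPase activating proteins bring about its hydrolysis, and each Rab marks its own set of membranes, from the ER and Golgi to endosomes and secretory granules. In β-cells, Rab3 and Rab27 proteins act on the insulin granule, where they serve docking and release at the plasma membrane. Transcript levels do not report which share of a Rab protein is GTP-bound.

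Library totals lay between 10559175 and 14391602 counts on HFD and between 11145642 and 22557957 counts on CD. One library, HFD replicate 3, differed from all others. Only 9627 genes were detected there, against 12484 to 14600 elsewhere, and it lacked any count for 8.55% of the genes that had 50 counts or more in all other 6 libraries. Its log2 CPM values correlated with those of the other libraries at 0.815 to 0.845 across genes, while every other library had a partner at 0.957 or above. Fold changes of the named genes that move with this library are given with and without it. The sum of 8 β-cell markers, led by Ins2, took 320572 to 331800 CPM (read counts scaled to a common library size, for sums over genes by the total counts alone) on HFD and 300114 to 312857 on CD, without overlap, and 5 of the 8 had a log2 fold change above 0. Sums of 8 acinar markers, led by Ctrb1, ran from 0.758 to 1967 CPM on HFD and from 59.3 to 2592 on CD, with the lowest value in HFD replicate 3. Sums of 6 α-cell markers (led by Ttr) were 782 to 1200.2 CPM on HFD and 985 to 1274 on CD. Those of 4 δ- and PP-cell markers (Sst) were 500.4 to 665 on HFD and 457 to 1329 on CD. Those of 6 ductal markers (Krt8) were 1160 to 1489 on HFD and 1251 to 1503 on CD, and those of 6 macrophage markers (C1qa) were 30.3 to 49.3 on HFD and 46.7 to 72.4 on CD. Endothelial (Pecam1) and stromal (Col1a2) markers summed to at most 2.60 CPM in any library. The part of these other cells in the Rab values was not tested.

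The 41 members share one fold, and their transcripts had to be told apart by sequence. In 39 of them the annotated coding sequence holds the pattern of the phosphate-binding loop, which grips the phosphates of GTP: a glycine, any 4 residues, a glycine, a lysine, and a serine or threonine. Rab40b and Rab40c, the members with a SOCS box, do not hold the pattern in that form. Shown here are the loop of the granule members and of the Rab1 pair, since the granule members are described one by one below, the Rab1 pair holds the member of highest level, and both sets include close relatives. Each line has 60 bases of coding sequence from the GENCODE M21 annotation of GRCm38 (the assembly also called mm10), 5′ to 3′, with the 24 bases that encode the loop in capitals.
Rab3a: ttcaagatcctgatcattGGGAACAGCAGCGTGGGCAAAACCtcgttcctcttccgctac
Rab3b: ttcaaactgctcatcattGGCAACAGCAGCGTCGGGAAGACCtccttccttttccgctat
Rab3d: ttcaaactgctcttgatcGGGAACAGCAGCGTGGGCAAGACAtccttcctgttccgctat
Rab27a: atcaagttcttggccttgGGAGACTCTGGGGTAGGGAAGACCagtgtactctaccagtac
Rab37: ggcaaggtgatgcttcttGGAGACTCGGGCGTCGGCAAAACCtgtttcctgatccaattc
Rab1: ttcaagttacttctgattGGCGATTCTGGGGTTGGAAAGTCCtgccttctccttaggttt
Rab1b: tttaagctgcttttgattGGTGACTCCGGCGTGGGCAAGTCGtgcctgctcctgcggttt
The loops lie in coding exons on the plus strand for Rab3a (exon 2, chr8:70755940-70755963), Rab3b (exon 2, chr4:108890392-108890415), Rab27a (exon 3, chr9:73075460-73075483), Rab37 (exon 2, chr11:115156939-115156962) and Rab1 (exon 2, chr11:20215658-20215681, annotated as Rab1a). Those of Rab3d (exon 2, chr9:21915825-21915848) and Rab1b (exon 2, chr19:5105199-5105222) are on the minus strand.

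Sequence identity was compared first. Over 12 pairs of the same subfamily, 74.1% to 77.6% of the aligned coding bases were identical, as in Rab3b and Rab3d at 77.6% and Rab1 and Rab1b at 77.6%, while Rab3d and Rab27a shared 59.5%. No run of 50 bases in the longest transcript of a member occurred in any transcript of another member, and 19 members shared no such run with any annotated gene. Rab4b shared 93.0% of its runs with the read-through gene Gm21983, and Rab43 shared 89.4% with Gm45140, so counts of these members depend on how shared reads were assigned. Rab2b shared 68.3% with Gm43766, Rab24 shared 48.9% with Prelid1 and Rab6a shared 20.8% with Mrpl48, all on the opposite strand, and 20.7% of the runs of Rab33b also occur on the opposite strand, mostly in Gm38160. The library kit keeps strand, but its use in counting is not given in the sources used here.

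The β-cell libraries held Rab transcripts for every stage of the secretory and endocytic route. Levels are given per length, as CPM with TMM-scaled library sizes per kb of the longest annotated transcript. Rab1, which serves traffic from the ER to the Golgi, was highest with a mean of 124 CPM per kb over the 7 libraries. Rab2a, which acts between the ER, the Golgi and forming granules, followed at 102 and Rab27a, the docking Rab of insulin granules, at 94.3. Rab2a stood at 109 ± 14.6 on HFD and 96.2 ± 9.61 on CD. Rab27a stood at 88.8 ± 11.3 on HFD and 98.5 ± 5.95 on CD (SD, n = 3 and 4). Within each diet the ranges of the pair overlapped, although Rab2a was above Rab27a in every HFD library and not in every CD library. No diet difference was resolved in either gene (edgeR adjusted p = 0.904 for each), and neither was the order of the pair. That order also depends on length. The longest annotated transcript of Rab27a has 3168 bases and the median one 2281, against 2133 in both for Rab2a. Next came Rab1b at 66.9, the granule Rabs Rab3d at 60.7 and Rab3a at 60.3, Rab6a of the Golgi at 57.4, the granule Rab Rab37 at 55.5, Rab5c of early endosomes at 46.4 and Rab25, an epithelial relative of Rab11, at 45.4 CPM per kb. From Rab3d to Rab37 the neighbouring means were closer than the SDs of the libraries, and the order among them was not resolved. The lowest member was Rab8b at 2.55 CPM per kb. Against all 12354 genes tested, Rab1 lay at percentile 98.1 of the level per kb, Rab25 at 92.2 and Rab8b at 25.7.

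**Figure D1:**
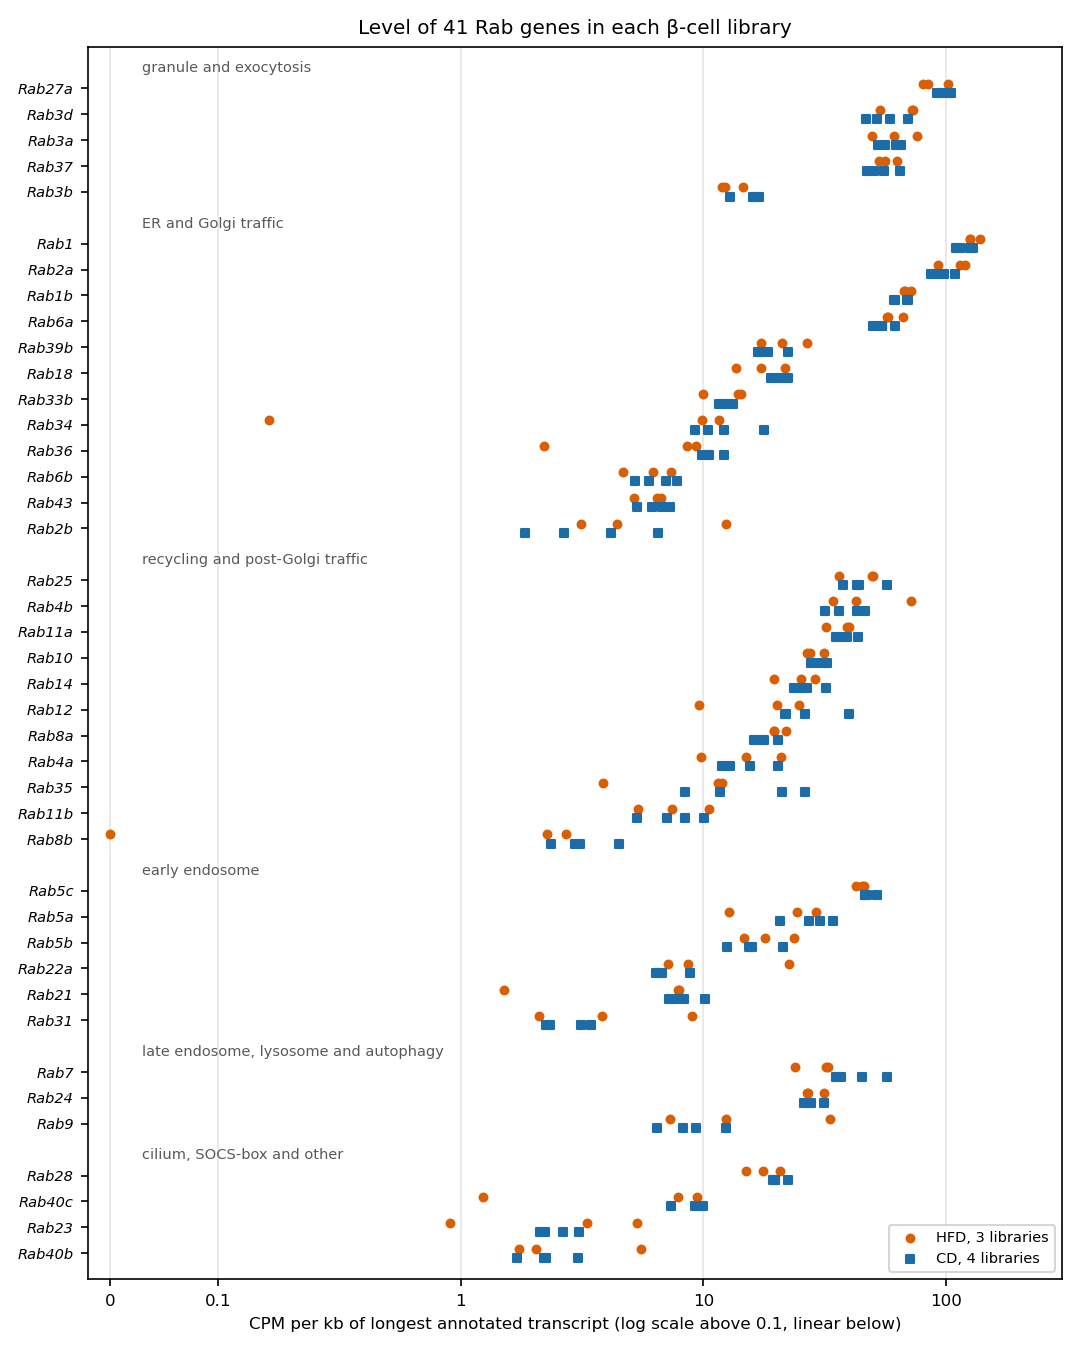
Level of the 41 Rab genes in each β-cell library, as CPM per kb of the longest annotated transcript (log axis above 0.1, linear below), grouped by role, with orange circles for 3 HFD libraries and blue squares for 4 CD libraries. Rab1, Rab2a and Rab27a are the highest members with means of 124, 102 and 94.3 CPM per kb, and the few points far to the left of their gene, such as Rab8b at 0 and Rab34, are HFD replicate 3.

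The 10 highest members carried 60.4% ± 0.43 of the summed level per kb of the family on HFD and 58.0% ± 1.68 on CD (SD, n = 3 and 4). The HFD libraries (59.95% to 60.8%) lay above the CD libraries (55.8% to 59.8%), but the nearest libraries almost met. These 10 were chosen by their level in the same libraries, and the share rests on the longest transcript. The difference between the diets was not tested. By role, 12 members of ER and Golgi traffic carried 37.3% ± 1.54 on HFD and 35.5% ± 1.73 on CD. The 5 granule members carried 23.7% ± 0.47 on HFD and 23.5% ± 0.28 on CD, and every library lay between 23.2% and 24.2%. The 11 members of recycling and post-Golgi traffic had 21.2% ± 0.592 on HFD and 22.2% ± 1.74 on CD. The 6 early endosomal members had 8.98% ± 0.369 on HFD and 9.18% ± 0.583 on CD. The 3 members of late endosomes, lysosomes and autophagy had 6.25% ± 0.739 on HFD and 6.67% ± 0.409 on CD, and the remaining 4 had 2.50% ± 0.357 on HFD and 2.84% ± 0.189 on CD. No share of a role differed between the diets by more than 2 percentage points, and in each role the libraries of the diets overlapped.

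The diets were alike in the total Rab message. The 41 members summed to 3442, 3340.0 and 3232 CPM in HFD replicates 2 to 4, against 3242, 3414, 3489 and 3172 in CD replicates 1 to 4. The means were 3338 ± 105 on HFD and 3329 ± 148 on CD (SD, n = 3 and 4), a ratio of 1.003. In such bulk libraries, fewer cells that express a gene and less of its RNA per cell cannot be told apart. Single members were compared with edgeR over all genes, and the log2 fold change is HFD over CD throughout. No member passed an adjusted p of 0.05 (0 of 41, with a background of 0% of the 12354 genes tested, and a lowest adjusted p of 0.817). At an unadjusted p under 0.05 there were 2 members, or 4.88%, against 5.77% of all genes tested. These were Rab22a, higher on HFD, and Rab7, lower on HFD, where the background was 2.86% of genes higher and 2.91% lower. DESeq2 called 1.11% of all genes at an adjusted p under 0.05 and limma-voom with quality weights called 0.219%, and neither called a member. Of the members, 21 had a log2 fold change above 0 and 20 below, against 42.1% of all genes above 0, and the median was 0.01 against −0.08 for all genes tested. A share near the background is no result about these genes.

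Diet differences in the abundant members were bounded closely. For 27 of 41 members the 95% interval of the log2 fold change lay within −1 to 1, against 45.2% of all genes tested, and for 17 members it lay within a 1.5-fold change either way. Among the 10 members of highest level per kb, no log2 fold change exceeded 0.22 in size, and the intervals together spanned −0.45 to 0.59, or 0.731-fold to 1.505-fold. Over the 4 CD libraries the coefficient of variation of those 10 ran from 5.67% in Rab5c to 18.3% in Rab25. Its median was 13.96% over all members and 20.97% over all genes tested. The members were also more abundant than the average gene, with a median of 55.1 CPM against 22.9 CPM over all genes tested. The floor of 350 summed counts applied to the members and not to all genes tested. The contrasts with all genes in level, interval and variation are thus partly set by the choice of members. Of the Rab rows under that floor, 8 were tested and are not in these figures.

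**Figure D2:**
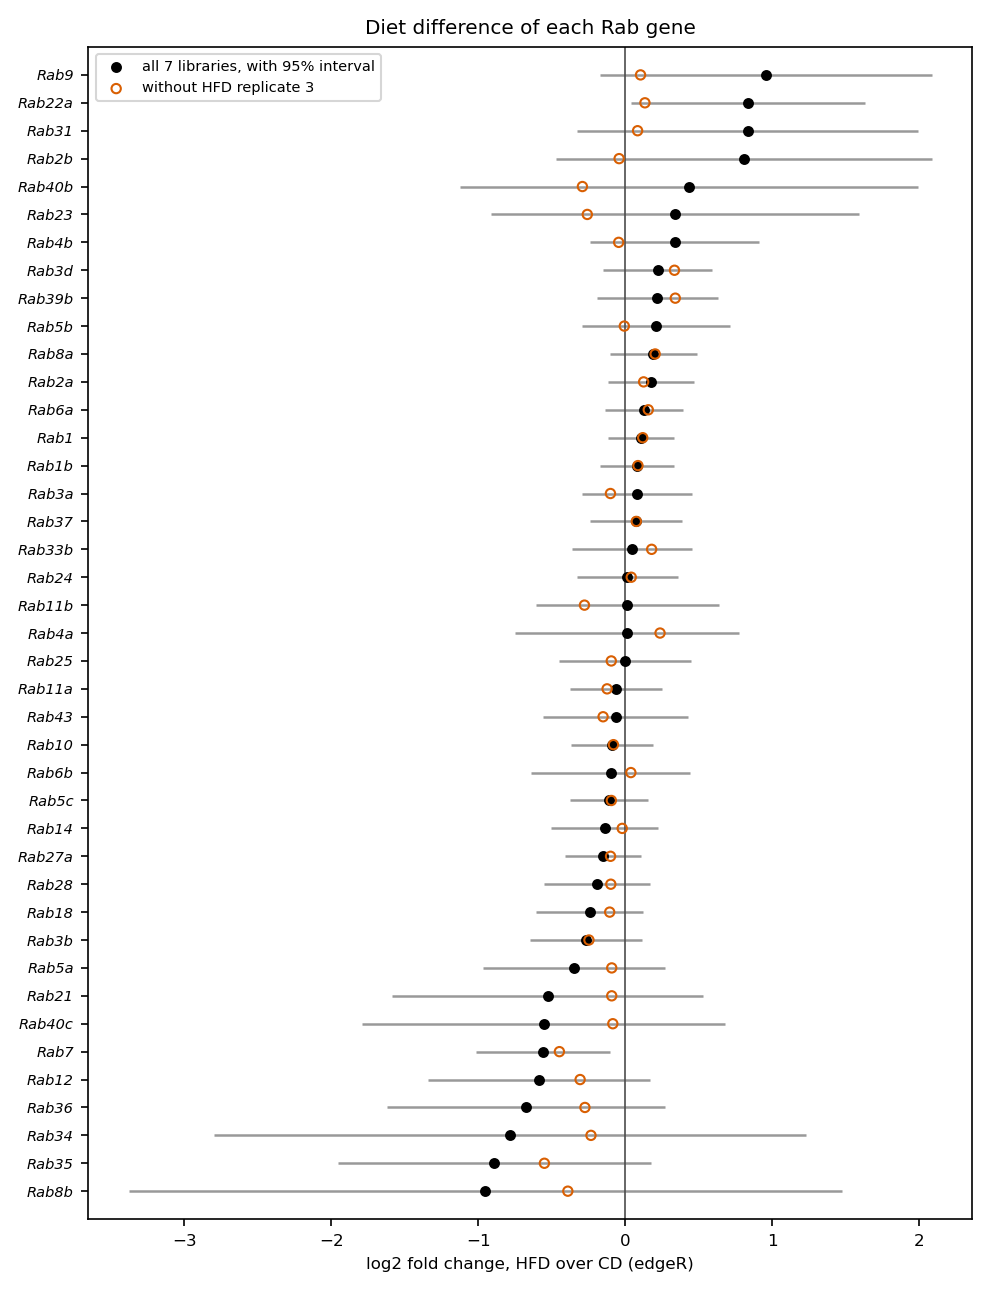
Log2 fold change of each Rab gene, HFD over CD, from edgeR with all 7 libraries (black points, with bars for the 95% interval) and without HFD replicate 3 (open orange circles). The bars of most genes cross 0, those of Rab7 and Rab22a do not, and most of the larger fold changes at either end come closer to 0 when that library is left out.

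Granule Rabs, the members closest to insulin release, were examined one by one. Rab27a, which holds insulin granules at the plasma membrane through the effectors granuphilin and exophilin, had 322, 255 and 267 CPM in HFD replicates 2 to 4, against 305, 331, 323 and 289 CPM in CD replicates 1 to 4. Its log2 fold change was −0.15 (SE 0.11, interval −0.41 to 0.11, edgeR adjusted p = 0.904), and HFD replicate 2 lay among the CD libraries. Without HFD replicate 2 it reached an unadjusted p under 0.05 at −0.27, and this is the only granule member for which leaving out a library did so. Its paralog Rab27b had 15 counts in all 7 libraries together, and Rab27a gave 99.9% to 100% of the level of the pair in every library.

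Rab3 proteins bind RIM and rabphilin at the release site. Rab3d, known best from exocrine granules, had 283, 208 and 279.8 CPM in the HFD libraries, against 182, 201, 270.5 and 228 CPM on CD. HFD replicates 2 and 4 lay above every CD library and HFD replicate 3 among them. The log2 fold change was 0.22 (SE 0.16, interval −0.15 to 0.59, edgeR adjusted p = 0.904), and without HFD replicate 3 it was 0.33 (edgeR adjusted p = 0.735). Acinar cells also express Rab3d, and the acinar marker sum was 1967, 0.758 and 850.3 CPM in HFD replicates 2 to 4, against 59.3, 2592, 349.9 and 531 CPM in CD replicates 1 to 4. Within HFD, the library with the lowest acinar sum also had the lowest Rab3d, and on CD the same held for CD replicate 1, while CD replicate 2, with the highest acinar sum, had less Rab3d than CD replicates 3 and 4. The part of acinar RNA in the Rab3d values was not tested.

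Rab3a, the neuronal and endocrine form, had 77.2, 118 and 95.1 CPM on HFD, against 102, 81.1, 96.2 and 87.1 CPM on CD. The diets overlapped, and the log2 fold change was 0.08 (SE 0.17, interval −0.29 to 0.45) with all libraries and −0.10 without HFD replicate 3. Rab3b had 48.3, 41.001 and 39.8 CPM on HFD, against 53.4, 56.5, 42.9 and 54.6 CPM on CD, a log2 fold change of −0.27 (SE 0.17, interval −0.65 to 0.11). Among Rab3 genes, Rab3d gave 46.8% ± 8.02 of the level per kb on HFD and 43.1% ± 4.89 on CD, Rab3a gave 43.9% ± 8.88 on HFD and 44.9% ± 4.00 on CD, and Rab3b gave 9.17% ± 1.23 on HFD and 11.99% ± 2.17 on CD (SD, n = 3 and 4). These shares use the longest annotated transcript, of 3886 bases for Rab3d and 1556 for Rab3a. The median annotated transcript has 694 bases for Rab3d and 1369 for Rab3a, so the shares depend on which transcript sets the length. Rab3c had 130 counts in all libraries together. Rab37, a granule Rab that binds a Munc13 priming factor, had 163, 146 and 138 CPM on HFD, against 131, 168, 145 and 123 CPM on CD. The HFD libraries lay within the CD range, at a log2 fold change of 0.07 (SE 0.14, interval −0.24 to 0.38). Rab26, the remaining granule Rab of the list, had 61 counts.

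**Figure D3:**
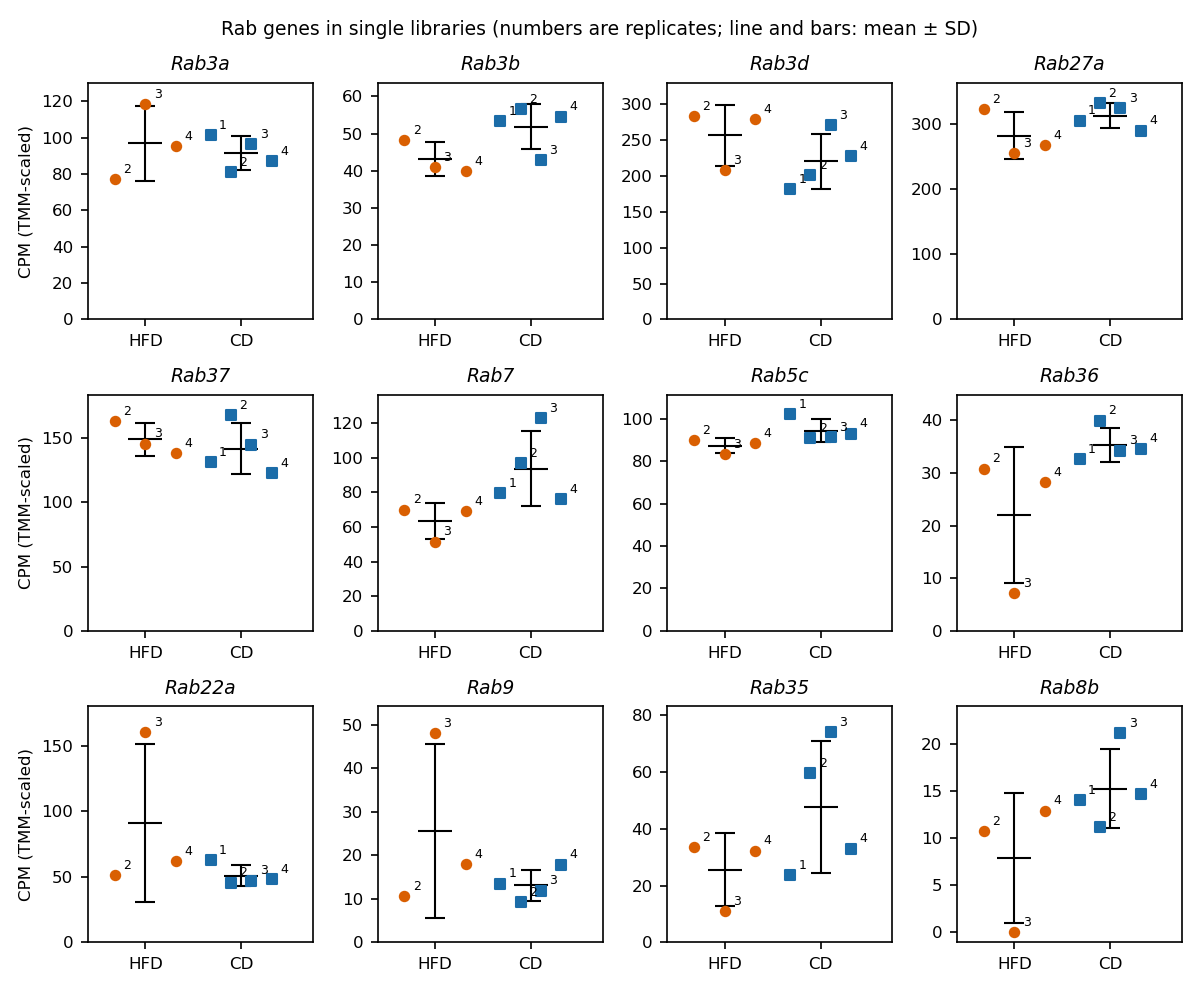
TMM-scaled CPM of 12 Rab genes in single libraries, with HFD (orange circles) left of CD (blue squares), replicate numbers beside the points, and black lines for the mean and SD of each diet; each vertical axis has its own scale. The granule genes in the first row and Rab37 overlap between the diets, Rab7, Rab5c and Rab36 do not, and in Rab22a, Rab9, Rab35 and Rab8b the HFD replicate numbered 3 lies far from the other HFD replicates.

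In ER and Golgi traffic the abundant members were close between the diets. Rab1 had 389, 353 and 354 CPM on HFD, against 366, 355, 324 and 312 CPM on CD, a log2 fold change of 0.11 (SE 0.10, interval −0.12 to 0.33). Rab1b, which acts on the same step, had 137, 129 and 130.1 CPM on HFD, against 118, 131, 116 and 133 CPM on CD, at 0.08 (SE 0.11). Rab1b gave 34.8% ± 0.451 of the Rab1 pair per kb on HFD and 35.3% ± 2.64 on CD. Rab2a had 256, 243 and 197 CPM on HFD, against 232, 185, 209.7 and 194 CPM on CD, at 0.18 (SE 0.13, interval −0.12 to 0.47). Rab6a, which drives both retrograde and outward traffic from the Golgi, had 214, 183 and 184 CPM on HFD, against 175, 198, 161 and 175 CPM on CD, at 0.13 (SE 0.12, interval −0.14 to 0.40). All of these fold changes were above 0, none reached an unadjusted p under 0.05 in edgeR, and each had overlapping diets.

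The scarcer Golgi members varied more. Rab36, which binds the lysosomal adaptor RILP, had 30.8, 7.23 and 28.2 CPM on HFD, against 32.5, 39.9, 34.2 and 34.6 CPM on CD. Every HFD library lay below every CD library, and the log2 fold change was −0.68 (SE 0.42, edgeR adjusted p = 0.888) with all libraries and −0.27 without HFD replicate 3. Its closest relative Rab34, also of the Golgi and of primary cilia, had 19.5, 0.275 and 16.7 CPM on HFD, against 17.6, 15.5, 29.9 and 20.6 CPM on CD. The value of HFD replicate 3 rests on 3 counts, and the log2 fold change was −0.78 with it and −0.23 without it. Rab2b, the minor partner of Rab2a, had 15.7, 44.5 and 11.2 CPM on HFD, against 14.8, 6.61, 23.2 and 9.50 CPM on CD. Its fold change was 0.81 with all libraries and −0.04 without HFD replicate 3, and its counts could hold reads of the opposite-strand gene named above. The other 5 members of this role had log2 fold changes between −0.24 and 0.22, and between −0.15 and 0.34 without HFD replicate 3.

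Recycling and post-Golgi members include the 3 Rab11 relatives. Rab25 had 39.3, 54.2 and 53.7 CPM on HFD, against 46.5, 47.4, 61.8 and 40.7 CPM on CD, and its log2 fold change of −0.00 had an interval of −0.45 to 0.45. Rab11a, the main Rab of recycling endosomes, gave 82.7% ± 4.82 of the Rab11a and Rab11b level per kb on HFD and 83.5% ± 3.32 on CD. Rab35, which returns receptors from early endosomes to the plasma membrane, had 33.6, 10.9 and 32.3 CPM on HFD, against 23.7, 59.4, 73.9 and 33.0 CPM on CD. The CD libraries themselves spread over a coefficient of variation of 48.9%, and HFD replicates 2 and 4 lay between CD replicates 1 and 2. The log2 fold change of Rab35 was −0.89 (SE 0.47, edgeR adjusted p = 0.862), and −0.55 without HFD replicate 3.

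Rab12, which routes the transferrin receptor from recycling endosomes to lysosomes, had 51.5, 19.9 and 41.5 CPM on HFD, against 54.4, 45.1, 82.0 and 44.9 CPM on CD. The log2 fold change was −0.59 (SE 0.34) with all libraries and −0.31 without HFD replicate 3. Rab8b, a relative of Rab8a in traffic toward the plasma membrane, had 10.7, 0 and 12.9 CPM on HFD, against 14.01, 11.2, 21.2 and 14.7 CPM on CD. It was the only member at 0 in any library, where a count of 0 allows up to 3 counts, or 0.275 CPM. Its log2 fold change was −0.95 with an interval of −3.38 to 1.47, and −0.39 without HFD replicate 3. Rab8a, at 99.8, 89.1 and 89.3 CPM on HFD and 80.8, 92.5, 78.4 and 73.6 CPM on CD, showed no such gap (log2 fold change 0.19, interval −0.11 to 0.49). The other 6 members of this role lay between −0.14 and 0.34 on the log2 scale, and between −0.28 and 0.24 without HFD replicate 3. The highest with all libraries, Rab4b at 0.34, was −0.04 without it.

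Among early endosomal members, Rab5c had the lowest coefficient of variation of the family over the CD libraries. It had 89.9, 83.4 and 88.6 CPM on HFD, against 102, 90.8, 91.4 and 93.0 CPM on CD. Every HFD library was below every CD library, but by little, and the log2 fold change was −0.11 (SE 0.12, interval −0.38 to 0.15, edgeR adjusted p = 0.919). Rab5c gave 52.2% ± 2.65 of the level per kb of the 3 Rab5 genes, which set the identity of early endosomes, on HFD and 52.1% ± 3.29 on CD. Rab22a, which recycles cargo from early endosomes, had 51.1, 161 and 61.9 CPM on HFD, against 63.0, 45.6, 47.2 and 48.4 CPM on CD. Its log2 fold change of 0.84 (SE 0.35, edgeR adjusted p = 0.854) rests on HFD replicate 3, and without that library it was 0.13 (edgeR adjusted p = 0.935). Rab31, the paralog of Rab22a that works between the trans-Golgi and endosomes, had 7.31, 31.1 and 13.3 CPM on HFD, against 8.14, 10.9, 7.80 and 11.9 CPM on CD, at 0.83 with that library and 0.08 without it. The other 3 members lay between −0.53 (Rab21) and 0.21 (Rab5b), and without HFD replicate 3 between −0.09 and −0.01.

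Late endosomal Rab7 was the member of lowest p. This Rab commits endosomes and autophagosomes to fusion with lysosomes. It had 70.1, 51.6 and 69.2 CPM on HFD, against 79.6, 96.8, 123 and 76.0 CPM on CD, and every HFD library lay below every CD library. The log2 fold change was −0.56 (SE 0.20, interval −1.01 to −0.11, edgeR adjusted p = 0.817), and −0.45 (edgeR adjusted p = 0.735) without HFD replicate 3. Leaving out single libraries moved it between −0.65 and −0.41, always below 0. Without CD replicate 3 no member had an unadjusted p under 0.05, against 4.50% of all genes tested. Of the 50-base runs of Rab7, 14.5% also occur in the pseudogene Rab7-ps1. Together with Rab5c and Rab36 it is 1 of 3 members, or 7.32%, whose diets did not overlap, against 9.41% of all genes tested. All had HFD below CD, where the background was 5.37%, and 4.03% of all genes had HFD above CD. No member had every HFD library above every CD library.

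Rab9, which returns mannose 6-phosphate receptors from late endosomes to the Golgi, had 10.6, 48.1 and 17.9 CPM on HFD, against 13.5, 9.28, 11.9 and 17.9 CPM on CD. It had the highest log2 fold change of the family at 0.96 (SE 0.50, edgeR adjusted p = 0.861), which was 0.10 without HFD replicate 3. Rab24, linked to autophagy, was level at 56.6, 48.3 and 48.9 CPM on HFD and 50.2, 56.4, 49.4 and 47.1 CPM on CD, a log2 fold change of 0.01. Of the remaining members, Rab40b, whose SOCS box recruits a cullin ubiquitin ligase, had 3.25, 10.3 and 3.82 CPM on HFD, against 3.19, 4.11, 4.17 and 5.67 CPM on CD. Its log2 fold change was 0.44 with all libraries and −0.29 without HFD replicate 3. Rab28 and Rab23, which act at the cilium, and Rab40c had log2 fold changes of −0.19, 0.34 and −0.56. Without HFD replicate 3 these were −0.10, −0.26 and −0.08.

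HFD replicate 3 was the highest library for 10 members and the lowest for 17, and thus at one end for 27 of 41. Over all genes tested it was highest for 23.4%, lowest for 46.1% and at one end for 69.5%, so the members follow the table as a whole in this. It exceeded the highest other library by over 1.5 times in 7 members, by 2.69 times in Rab9, 2.55 times in Rab22a, 2.34 times in Rab31 and 1.91 times in Rab2b, followed by Rab40b, Rab23 and Rab4b. It lay under the lowest other library by over 1.5 times in 8 members, which were Rab8b, Rab34, Rab40c, Rab21, Rab36, Rab35, Rab12 and Rab5a. With all libraries, 12 members had a log2 fold change over 0.5 in size, and without this library 1 of them did, Rab35. The sign changed for 8 members. Without this library the median size of the log2 fold change went from 0.21 to 0.12 in the members and from 0.29 to 0.23 over all genes tested. The counts beyond 1.5 times, over 0.5 in size and of changed sign have no share over all genes beside them. They are thus no result about the Rab genes. Of 41 members, 31 had over 10 CPM in every library. Without HFD replicate 3, no member had an unadjusted p under 0.05 in edgeR, against 6.81% of all genes tested, and 0.0156% of all genes (2 genes, no member) passed the adjusted threshold.

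**Figure D4:**
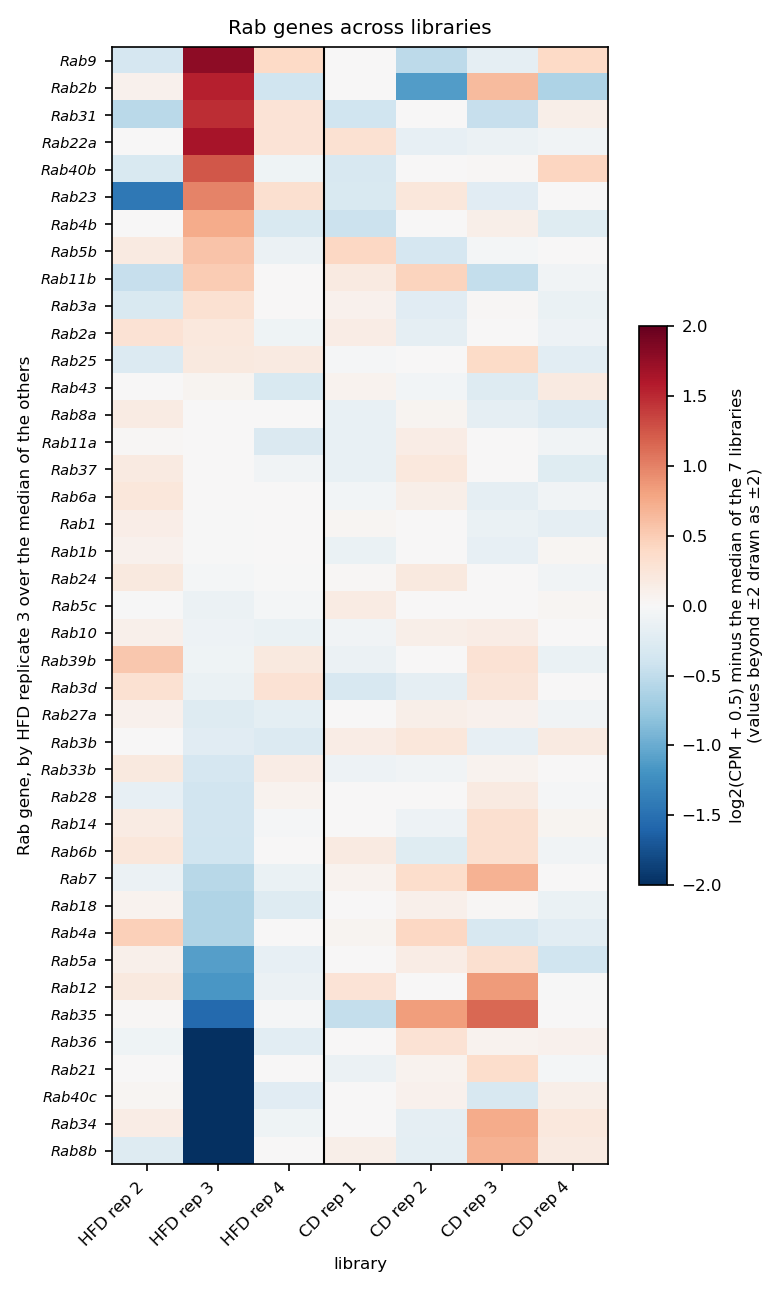
Rab genes (vertical axis, ordered by the ratio of HFD replicate 3 to the median of the other libraries) in the 7 libraries (horizontal axis, HFD left of the black line and CD right of it), coloured by log2(CPM + 0.5) minus the median of the gene over the libraries. The strong colours at the top and bottom stand in the column of HFD replicate 3, which exceeded all other libraries by over 1.5 times in 7 genes and lay under them by over 1.5 times in 8. No share of all genes tested is given for these counts, which are no result about the Rab genes.

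Genes that act on Rab proteins were counted from 5 lists. Of 131 listed genes that are in the table, 119 were tested, none passed an adjusted p of 0.05 in edgeR, DESeq2 or limma-voom, and 8 had an unadjusted p under 0.05, or 6.72% against 5.77% of all genes tested. All 8 GDI, escort and prenylation factors were tested, with 2 above 0, 6 below 0, none at an unadjusted p under 0.05, and a median log2 fold change of −0.13 with all libraries and 0.03 without HFD replicate 3. The lowest p values in that list belonged to Rabif, a guanine-nucleotide-free chaperone of Rabs (0.49, edgeR adjusted p = 0.887), Rabac1, which frees Rabs from GDI (0.17), and Rabggta, a subunit of the enzyme that attaches the lipid anchor (−0.25). Without HFD replicate 3 their values were 0.28, 0.07 and −0.16. Of 34 exchange factors, 31 were tested, and 22 of these were below 0 (median −0.20), but none had an unadjusted p under 0.05. Above 0 were 29.0% of the tested exchange factors, against 42.1% of all genes tested. The list also holds Rgl1 (−0.20), a relative of exchange factors for Ral, which is not a Rab. The lowest p values were those of Dennd6b at −0.61, Dennd2d at 0.50 and Dennd3, an exchange factor of Rab12, at −0.52. Without HFD replicate 3 these were −0.75, 0.10 and −0.28.

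GTPase activating proteins were evenly split, with 19 of 39 tested genes above 0 and 20 below, and a median of −0.00. Grtp1, a TBC-domain protein, had 34.0, 46.9 and 26.9 CPM on HFD, against 22.3, 11.9, 29.0 and 22.3 CPM on CD (log2 fold change 0.75, SE 0.33, edgeR adjusted p = 0.854, 0.49 without HFD replicate 3). It was the only gene of this list at an unadjusted p under 0.05, or 2.56% of those tested against 5.77% of all genes tested. With single libraries left out, Grtp1 had such a p only without HFD replicate 4 or CD replicate 3. No gene of the list had one in limma-voom or without CD replicate 1 or 4. Tbc1d20, which acts on Rab1 and Rab18, had −0.40 and Tbc1d9b had −0.25 on the log2 scale, or −0.26 and −0.17 without HFD replicate 3.

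Granule effectors were tested for 11 of 16 genes, with 7 above 0 and 4 below and a median of 0.08, which was 0.00 without HFD replicate 3. Sytl1, a synaptotagmin-like protein that binds Rab27, had 37.4, 44.8 and 36.0 CPM on HFD, against 27.5, 22.5, 25.4 and 35.7 CPM on CD. Every HFD library was above every CD library, though HFD replicate 4 and CD replicate 4 nearly met, and the log2 fold change was 0.50 (SE 0.22, edgeR adjusted p = 0.854) with all libraries and 0.39 without HFD replicate 3. It was 1 of 11 tested genes, or 9.09%, at an unadjusted p under 0.05, against 5.77% of all genes tested. With single libraries left out, Sytl1 had such a p only without CD replicate 4. No gene of the list had one without HFD replicate 2 or 3 or CD replicate 1 or 3. The same held with the likelihood ratio test, with quality weights and with no filter on low counts. Exph5, another Rab27 effector, had a log2 fold change of 0.40 and Rims3, a short form of RIM, one of −0.34. Without HFD replicate 3 these were 0.38 and −0.17.

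Endosomal and Golgi effectors held the remaining 6 genes at an unadjusted p under 0.05, 20% of 30 tested against 5.77% of all genes tested, with 2 higher and 4 lower on HFD and a median over the list of −0.04. The count was 4 with the likelihood ratio test or upper-quartile factors, or 13.3% against 5.80% and 5.69% of all genes tested. It was 3 with limma-voom, or 10% against 6.48% of all genes tested. With single libraries left out, it ran from 2 (without CD replicate 3 or 4) to 6 (without HFD replicate 4). The former was 6.67% against 4.50% and 4.08% of all genes tested, and the latter 19.4% against 8.89%. Micall1, which builds tubular recycling endosomes with Rab8 and Rab35, had 12.4, 20.3 and 13.6 CPM on HFD, against 25.3, 30.2, 27.2 and 33.0 CPM on CD. The diets did not overlap, and the log2 fold change was −0.91 (SE 0.28, edgeR adjusted p = 0.79) and −1.17 without HFD replicate 3. The dynein adaptors of Rab6 differed in direction. Bicd1 had 38.5, 77.6 and 41.5 CPM on HFD, against 35.4, 29.0, 34.7 and 29.4 CPM on CD, at 0.71 (edgeR adjusted p = 0.817) and 0.30 without HFD replicate 3. Bicd2 had 13.9, 11.6 and 28.2 CPM on HFD, against 28.5, 30.3, 40.7 and 33.7 CPM on CD, at −0.89 (edgeR adjusted p = 0.817) and −0.68 without that library. Appl2, Ocrl and Rab11fip5 were the other 3. Without HFD replicate 3, 3 of 31 tested effectors of this list had an unadjusted p under 0.05, all lower on HFD, or 9.68% against 6.81% of all genes tested.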

How the data were processed

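The authors deposited raw counts of reads, not normalized, in 1 table with gene symbols in rows and libraries in columns, and per the labels a stranded mRNA kit was used. The submitters' processing notes name mm10 and edgeR. Which aligner and counter were run is not given in the sources used here. Of 24062 rows, 27 hold dates in place of symbols (at most 0.155% of a library) and were left out. Symbols were matched to GENCODE M21 of GRCm38 (98.5%). Genes kept by filterByExpr (12354) were fitted with glmQLFit and glmQLFTest of edgeR 4.0.16 in R 4.3.3, with TMM factors, two-sided p-values and Benjamini-Hochberg adjustment over all of them. Alternatives used DESeq2 1.42.0 and limma 3.58.1, and limma with quality weights was chosen after seeing the data. The fit was tested on simulated data. Sums over genes used total counts. Each library is 1 mouse, by the study's design. No replicates of a diet were duplicates, with a chi-square per gene of at least 15.7.

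Rab genes, roles, regulator lists and markers were chosen with earlier results of these data known. Rab genes named with values are the granule members, those at an unadjusted p under 0.05, the 10 of highest level per kb, and the 5 highest and 5 lowest log2 fold changes among members with at least 5 CPM in a diet. From each regulator or effector list the 3 genes of lowest p are named, and from each marker list the highest gene. Other genes with values (Rab8a, Rab11a, Rab24, Rab4b and genes named for shared sequence or counts) were named after their values were seen.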

Additional observations from a re-analysis of the deposited data

Results flagged for a closer look

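Among the 4 CD libraries, 2 of 41 members had a single library far from the others, where chance alone marks about 1 in 20 genes. The count is close to that rate and is no result about these members. The share over all genes tested is not given. Rab22a had 63.0 CPM in CD replicate 1, against 45.6 to 48.4 CPM in the other CD libraries. Rab28, a Rab of cilia, had 64.3 CPM in CD replicate 3, against 56.1 to 57.0 CPM in the others. The HFD group has too few libraries for this check.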

How the results depend on the processing

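No member passed an adjusted p of 0.05 under any of the tests, size factors, filters or left-out libraries tried. The count of members at an unadjusted p under 0.05 was 2 in edgeR, 4 with DESeq2 and 1 with limma-voom. These were 4.88%, 9.76% and 2.44% of the members, against 5.77%, 10.7% and 6.48% of all genes tested. With single libraries left out, the count was 0 without HFD replicate 3 or CD replicate 3, against 6.81% and 4.50% of all genes tested. It reached 7 without HFD replicate 2, or 17.1% against 6.53% of all genes tested. With library quality weights, chosen after seeing the data, the count was 2, or 4.88% against 9.01% of all genes tested. These were Rab3d and Rab39b, both higher on HFD. The median log2 fold change of the members ran from −0.0846 to 0.0146 over left-out libraries. For genes of the regulator and effector lists at an unadjusted p under 0.05 (8 in edgeR), DESeq2 gave 12, the likelihood ratio test 5 and left-out libraries gave 3 to 11. Over all genes tested the share rose and fell as well, with 5.77% in edgeR, 10.7% with DESeq2 and 5.80% with the likelihood ratio test. With left-out libraries it ran from 3.89% (without CD replicate 1) to 8.89% (without HFD replicate 4). Counted without Ins1 and Ins2, the members summed to 4782 CPM on HFD and 4659 on CD. By the length of the median annotated transcript, 5 of the 10 highest members stayed among the 10 highest, so the order of levels depends on which transcript sets the length. The share of the 10 highest members and the shares by role and within subfamilies use the longest transcript and rest on the same choice.

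Deviations of same-numbered libraries from their diet means correlated at 0.0253, 0.00424 and 0.0816 (replicates 2 to 4). Those of differently numbered libraries ran from −0.0567 to 0.0215. All of these were small, and the numbers were not taken as pairs. With the replicate block, 0 members and 3 genes of the lists had an unadjusted p under 0.05, against 3.04% of all genes tested.

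Of 352 fold changes (22 named genes, 16 alternatives), 338 kept their direction and 14 in 5 genes did not. Rab25, at −0.00 with all libraries, was 0.00671 with DESeq2 size factors, 0.00568 with the DESeq2 test, 0.0104 without a filter, 0.00788 with the strict filter, 0.0379 with upper-quartile factors and 0.0285 with quality weights. With single libraries left out it ran from −0.0950 to 0.126, Rab2b from −0.0416 to 1.197, Rab37 from −0.00377 to 0.14997, Rab3a from −0.101 to 0.213 and Rab40b from −0.291 to 0.715. With quality weights, Rab3a was −0.0796 and Rab40b −0.255. The cause of these shifts was not tested. With 3 against 4 mice, the intervals of some scarce members, such as Rab40b and Rab8b, reach beyond a 2-fold change in both directions.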
